A study of Mus musculus with 19 samples.

Results

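Mitosis and kinetochore genes were examined as a group of 42 genes that drive a cell from entry into mitosis to its division. Each gene was taken from the probe set that carried its symbol alone, or from the brightest of several, judged by the mean of the 19 arrays. Of the 42 genes, 39 were measured, each by 1 probe set, out of 22180 genes on the arrays. Ccnb1 had no such probe set in the annotation used, and Ccnf and Ncapg were named only in probe sets of several genes. The arrays held RNA from 3 thymocyte populations of C57BL/6 mice, sorted by surface markers. Immature single positive (ISP) cells, an early stage of the αβ lineage, came from Rptor-/- mice (3 arrays) and wild-type (WT) mice (4 arrays). DN3a thymocytes, precursors that have not yet chosen a lineage, came from Rptor-/- and WT mice (3 arrays each), and so did γδ T cells (3 arrays each). The Rptor-/- samples, titled Raptorfl/fl, came from a cross of CD2-cre mice with mice carrying a floxed gene for Raptor, a subunit of the growth-controlling kinase complex mTORC1, so that Cre is active in lymphoid cells. The γδ gate named no receptor of γδ cells, and it took cells lacking CD4, CD8, TCRβ, NK1.1 and Gr1. The ISP gate took CD8-positive cells without CD4 or TCRβ, and the DN3a gate took cells high in CD25 that lacked CD44 and CD28. Age, whether WT mice carried Cre, and whether each array came from a separate mouse, are not given in the labels, so p-values measure the spread between arrays.

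Mitotic genes are transcribed late in the cell cycle, and their messages are abundant in cells close to division and scarce in cells at rest. Cdk1 with its cyclins starts mitosis, the kinetochore ties each chromosome to spindle microtubules, the spindle checkpoint holds the cell until all are attached, and the anaphase-promoting complex then triggers separation. In the thymus, cells divide rapidly after the β chain or a γδ receptor has been assembled, which makes these genes a common readout of cycling thymocytes.

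Many mitotic promoters carry a cell cycle homology region (CHR), a short element near the start of transcription, often with upstream CCAAT boxes. RefSeq promoters of the GRCm38.p6 assembly, from 250 bases before to 50 bases after the start, were found for 31 of the 39 genes. Both strands were searched for a common and a variant form of the CHR and for the CCAAT box. The common form, TTTGAA, was present in 22 of the 31 promoters, or 71.0%, against 18.1% of all 27025 promoters of that length. The variant form, TTTAAA, which reads the same on either strand, was present in 29.0% of the members' promoters, against 13.2% of all. CCAAT was present in 77.4% of them, against 37.9% of all. Below are stretches from 100 bases before to 30 bases after the start, chosen because they belong to genes whose values lead the comparisons. Capitals mark matches to the 3 motifs on either strand, and no 2 matches overlap. The first sequences belong to genes that were lower in Rptor-/- γδ cells and include stretches with and without a CHR letter match. Matches in the searched window outside a stretch were counted above but are not shown, such as TTTAAA at -220 in Birc5 and CCAAT at 32 in Cenph.

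Ccnb2 (chr9:70421525-70421654, minus strand): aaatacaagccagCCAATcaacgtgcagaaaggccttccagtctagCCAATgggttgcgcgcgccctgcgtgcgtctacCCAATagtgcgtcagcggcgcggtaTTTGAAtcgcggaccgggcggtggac
Top2a (chr11:99024160-99024289, minus strand): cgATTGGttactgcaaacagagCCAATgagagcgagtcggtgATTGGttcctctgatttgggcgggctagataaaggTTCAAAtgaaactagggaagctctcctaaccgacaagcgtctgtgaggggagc
Birc5 (chr11:117849137-117849266, plus strand): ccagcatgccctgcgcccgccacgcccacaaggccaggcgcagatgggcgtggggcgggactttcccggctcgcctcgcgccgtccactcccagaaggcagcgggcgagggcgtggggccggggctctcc
Cenph (chr13:100775870-100775999, minus strand): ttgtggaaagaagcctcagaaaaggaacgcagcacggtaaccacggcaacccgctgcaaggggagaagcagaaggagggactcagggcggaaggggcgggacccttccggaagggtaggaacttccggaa

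The next sequences belong to Cenpf and Cenpe, which were higher in Rptor-/- ISP cells, and to Cenpa and Cdc25b, which were higher in WT γδ than in WT DN3a cells. A missing match says only that these letters do not occur in the stretch.

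Cenpf (chr1:189688057-189688186, minus strand): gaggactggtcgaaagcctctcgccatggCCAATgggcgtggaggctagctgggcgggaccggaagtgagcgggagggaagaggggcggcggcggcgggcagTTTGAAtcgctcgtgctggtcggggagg
Cenpe (chr3:135212463-135212592, plus strand): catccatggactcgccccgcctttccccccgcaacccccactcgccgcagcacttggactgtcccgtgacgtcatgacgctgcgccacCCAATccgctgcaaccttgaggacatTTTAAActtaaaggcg
Cenpa (chr5:30666786-30666915, plus strand): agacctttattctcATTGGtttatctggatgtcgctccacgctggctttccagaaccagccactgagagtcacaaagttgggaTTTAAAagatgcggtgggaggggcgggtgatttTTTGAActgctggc
Cdc25b (chr2:131186848-131186977, plus strand): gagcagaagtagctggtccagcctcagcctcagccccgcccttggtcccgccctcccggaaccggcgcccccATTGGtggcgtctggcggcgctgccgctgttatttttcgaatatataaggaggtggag

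Values are log2 signals as deposited, on which a difference of 1 is a 2-fold change, and a gene was called at an adjusted p below 0.05 in limma over all 22180 genes. Array medians were 3.8 to 3.88 on ISP arrays and 6.03 to 6.13 on the others, so ISP levels were never set against those of DN3a or γδ cells. Rptor itself was lower by 0.24 ± 0.08 (SE) in Rptor-/- ISP cells, by 0.58 ± 0.08 in Rptor-/- DN3a cells and by 0.30 ± 0.08 in Rptor-/- γδ cells, each called. Genes of the gate markers went only partly as the gates would select. In WT γδ against WT DN3a cells, Il2ra (CD25) was 9.09 against 12.58 and Cd28 9.17 against 7.89. Cd8b1 was 8.81 against 7.34, although the γδ gate left out CD8, and Cd8a was 5.86 against 5.66 and not called. Of genes outside these gates, Ptcra was 6.46 against 10.75 and Sox13 10.75 against 7.98. Cd3g (-0.39) and Cd3e (-0.24) were called lower in WT γδ cells. No probe set named a constant gene of the γδ receptor alone. The mitotic genes shifted together between arrays of a group. On 6 of the 19 arrays all 39 genes lay on the same side of their own group mean: above it on Rptor-/- ISP array 1, and below it on Rptor-/- ISP array 3 and on array 1 of all 4 DN3a and γδ groups. The members' median deviation from the group mean was farthest from 0 on Rptor-/- DN3a arrays 1 (-0.35) and 3 (0.29) and on WT ISP array 4 (-0.28), against 0.20 on Rptor-/- ISP array 1. Of markers of B cells (9 genes), dendritic cells (10), myeloid cells (11), erythroid cells (3) and thymic stroma (9), those called between genotypes were Ighm (lower by 0.40 in Rptor-/- ISP and by 0.86 in Rptor-/- DN3a cells), Pecam1 (higher by 0.39 in Rptor-/- ISP cells), and Epcam (0.67) and Lyz2 (1.04), both higher in Rptor-/- DN3a cells. Each array was left out in turn, and values that moved are given beside the results.

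**Figure D1:**
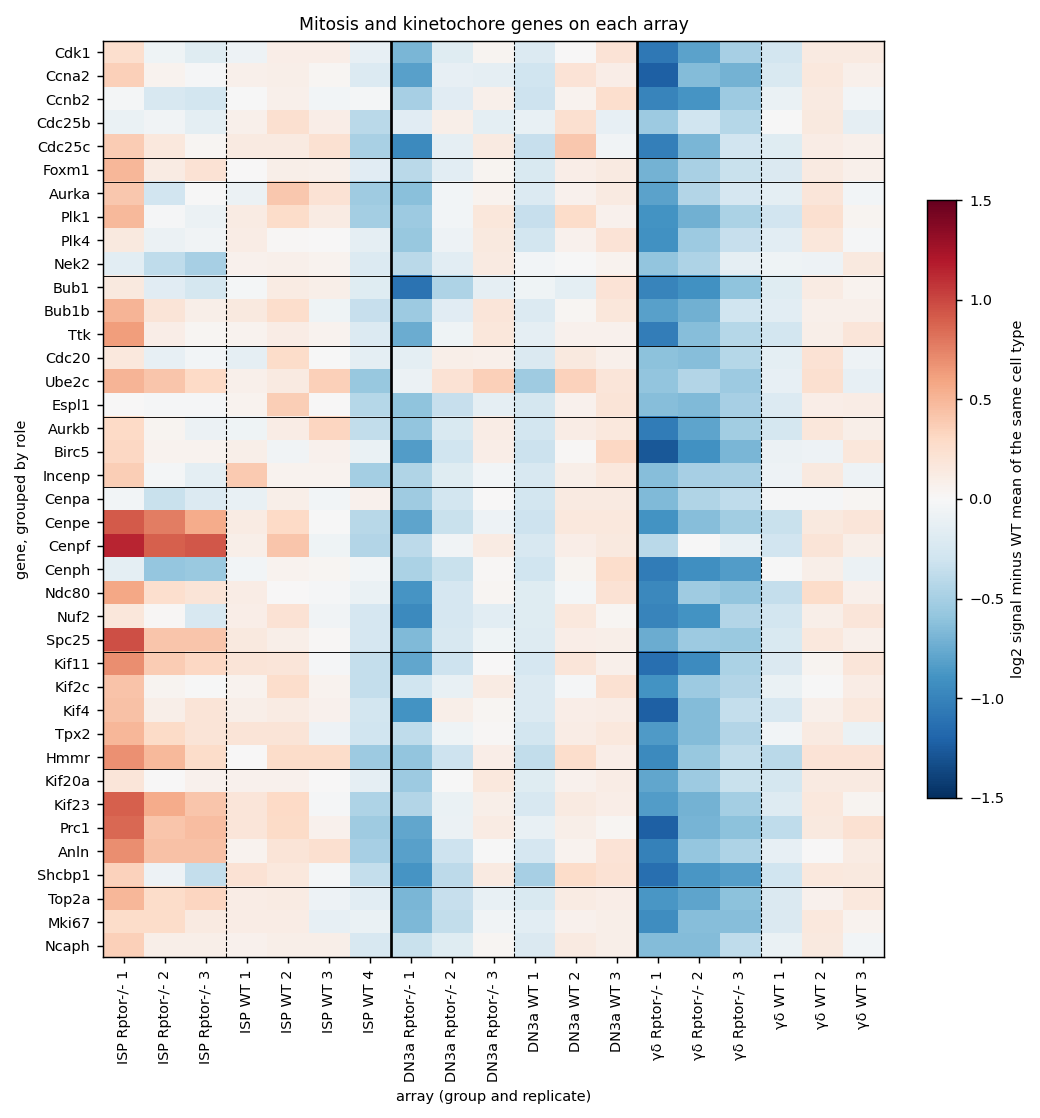
Log2 signal of the 39 measured genes on each of 19 arrays (columns, group and replicate number), as the difference from the WT mean of the same cell type; rows are grouped by role, blue is lower and red higher. The 3 Rptor-/- γδ arrays are blue in nearly every row, Rptor-/- DN3a array 1 is bluer than the other Rptor-/- DN3a arrays, and the ISP arrays are mixed.

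Loss of Raptor went with lower mitotic gene signals in γδ T cells. Of the 39 genes, 21 fell and none rose, which is 53.8% of the genes against a background of 1.28% of all genes called lower and 1.77% called higher. The median difference of the 39 genes was -0.68, against 0.00 over all genes. All 39 differences were below 0, from -0.96 for Birc5 to -0.17 for Cenpf. In 37 genes every Rptor-/- γδ array lay below every WT γδ array, a pattern seen in 8.78% of all genes, and 16 of these 37 were not called. In sorted bulk samples, fewer cells close to division and less message per dividing cell cannot be told apart.

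The number called depended on single arrays, although the median difference stayed between -0.78 and -0.55 whichever γδ array was left out. Without Rptor-/- γδ array 1 or WT γδ array 3, 8 genes were called, without Rptor-/- γδ array 2, 6, and without WT γδ array 2, 5. Birc5, Ccnb2, Cenph, Mki67 and Top2a were called in all 6 of these fits. Taken array by array, the members' median lay 0.89, 0.65 and 0.47 log2 units below the WT mean on Rptor-/- γδ arrays 1, 2 and 3, and 39, 38 and 37 genes on them lay below the lowest WT array.

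Of the Cdk1 module, Cdk1, Ccna2 and Ccnb2 fell in Rptor-/- γδ cells. Ccnb2, the B-type cyclin measured here, had signals of 9.07, 9.18 and 9.51 on the Rptor-/- γδ arrays, against 9.96, 10.20 and 10.02 on the WT γδ arrays. Its groups were well apart, and it fell by 0.81 ± 0.15 (SE, adjusted p = 0.0034, limma), a 1.75-fold lower signal. Cdk1, the kinase that starts mitosis, had 8.20, 8.47 and 8.77 in Rptor-/- γδ cells, against 9.0, 9.41 and 9.40 in WT γδ cells. The highest Rptor-/- array of Cdk1 stayed below the lowest WT array, and it fell by 0.79 ± 0.17 (adjusted p = 0.0151). Ccna2, the cyclin of S phase and early mitosis, had 8.35, 8.92 and 8.87 in Rptor-/- γδ cells, against 9.34, 9.73 and 9.65 in WT γδ cells. Its groups did not overlap either, and it fell by 0.86 ± 0.18 (adjusted p = 0.0124). The phosphatases that activate Cdk1 were not called: Cdc25b differed by -0.42 (adjusted p = 0.106) and Cdc25c by -0.67 (adjusted p = 0.166). Foxm1, a transcription factor of mitotic genes, fell by 0.51 ± 0.14 (adjusted p = 0.0486), close to the threshold.

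Of the spindle and centrosome kinases none was called in γδ cells, although all 4 had separated groups. Plk4, which starts centriole duplication, differed by -0.60 (adjusted p = 0.0513), Plk1, which acts at many steps of mitosis, by -0.70 (adjusted p = 0.0966, from 8.99 to 9.41 in Rptor-/- and 9.60 to 10.13 in WT γδ cells), Aurka, a kinase of the spindle poles, by -0.50 (adjusted p = 0.26) and Nek2, a kinase of centrosome separation, by -0.40 (adjusted p = 0.119). In the spindle checkpoint, Bub1 fell by 0.83 ± 0.18 (adjusted p = 0.0149), whereas Bub1b and Ttk differed by -0.61 and -0.69 and were not called. Of the genes of mitotic proteolysis, Cdc20, an activator of the anaphase-promoting complex, fell by 0.56 ± 0.13 (adjusted p = 0.0183). Espl1, the protease separase that cuts cohesin, fell by 0.60 ± 0.16 (adjusted p = 0.0444), and Ube2c, the ubiquitin-conjugating enzyme of that complex, differed by -0.52 (adjusted p = 0.21).

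In the chromosomal passenger complex, Birc5 and Aurkb fell. Birc5 (survivin) had 7.65, 8.01 and 8.23 in Rptor-/- γδ cells, against 8.83, 8.84 and 9.09 in WT γδ cells. The highest Rptor-/- array lay well below the lowest WT array, and the fall of 0.96 ± 0.19 (adjusted p = 0.00668), 1.94-fold, was the largest of the 39 genes. The kinase Aurkb had 8.45, 8.71 and 8.97 in Rptor-/- γδ cells, against 9.23, 9.67 and 9.59 in WT γδ cells. It fell by 0.79 ± 0.19 (adjusted p = 0.0272) with groups apart, and the scaffold Incenp differed by -0.54 (adjusted p = 0.109).

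Among the 7 centromere and kinetochore genes, Cenpa, Cenph, Nuf2 and Spc25 fell. Cenph, a subunit of the inner kinetochore, had 6.39, 6.51 and 6.6 in Rptor-/- γδ cells, against 7.43, 7.52 and 7.35 in WT γδ cells. These groups were tight and wide apart, and Cenph fell by 0.93 ± 0.14 with the lowest adjusted p of the 39 genes (0.000525, limma). Cenpa, the histone H3 variant that marks centromeres, had 8.70, 8.91 and 8.98 in Rptor-/- γδ cells, against 9.35, 9.35 and 9.40 in WT γδ cells. Its groups were apart, and it fell by 0.50 ± 0.13 (adjusted p = 0.0339). Nuf2 and Spc25, subunits of the microtubule-binding NDC80 complex, fell by 0.77 and 0.61, and Ndc80 of the same complex differed by -0.69 (adjusted p = 0.0546). Ndc80 had 7.74, 8.17 and 8.11 in Rptor-/- γδ cells, against 8.35, 8.98 and 8.78 in WT γδ cells, which did not overlap. The kinetochore motor Cenpe differed by -0.68 (adjusted p = 0.0638). Cenpf, a large protein of the outer kinetochore, overlapped between the groups, with 6.86, 7.26 and 7.16 in Rptor-/- γδ cells and 6.98, 7.46 and 7.36 in WT γδ cells.

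Of the motors and spindle assembly factors, Kif11, the motor that pushes spindle poles apart, fell by 0.85 ± 0.20, Kif2c, which shortens microtubules, by 0.62 ± 0.16, and Tpx2, an activator of Aurka, by 0.65 ± 0.15. Kif4, a motor on chromosomes, and Hmmr, a spindle protein, differed by -0.74 and -0.64 without being called, and Hmmr and Cenpf were the genes with overlapping groups. Of the midzone and cytokinesis genes, Kif23, a motor of the central spindle, fell by 0.69 ± 0.18 and Shcbp1, a midbody protein, by 0.94 ± 0.24. Prc1, which bundles midzone microtubules, Anln, a scaffold of the contractile ring, and Kif20a, a motor of cytokinesis, differed by -0.84, -0.68 and -0.55, with adjusted p-values of 0.0514, 0.068 and 0.0546.

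The measured genes of chromosome structure all fell in γδ cells. Top2a, which untangles sister DNA, had 8.99, 9.08 and 9.25 in Rptor-/- γδ cells, against 9.65, 9.93 and 10.02 in WT γδ cells. Mki67, the proliferation marker that coats mitotic chromosomes, had 10.37, 10.67 and 10.66 in Rptor-/- γδ cells, against 11.09, 11.46 and 11.36 in WT γδ cells. The groups of both genes were apart, and they fell by 0.76 ± 0.14 (adjusted p = 0.0034) and 0.74 ± 0.13 (adjusted p = 0.00347). The condensin subunit Ncaph fell by 0.56 ± 0.12 (adjusted p = 0.0152).

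**Figure D2:**
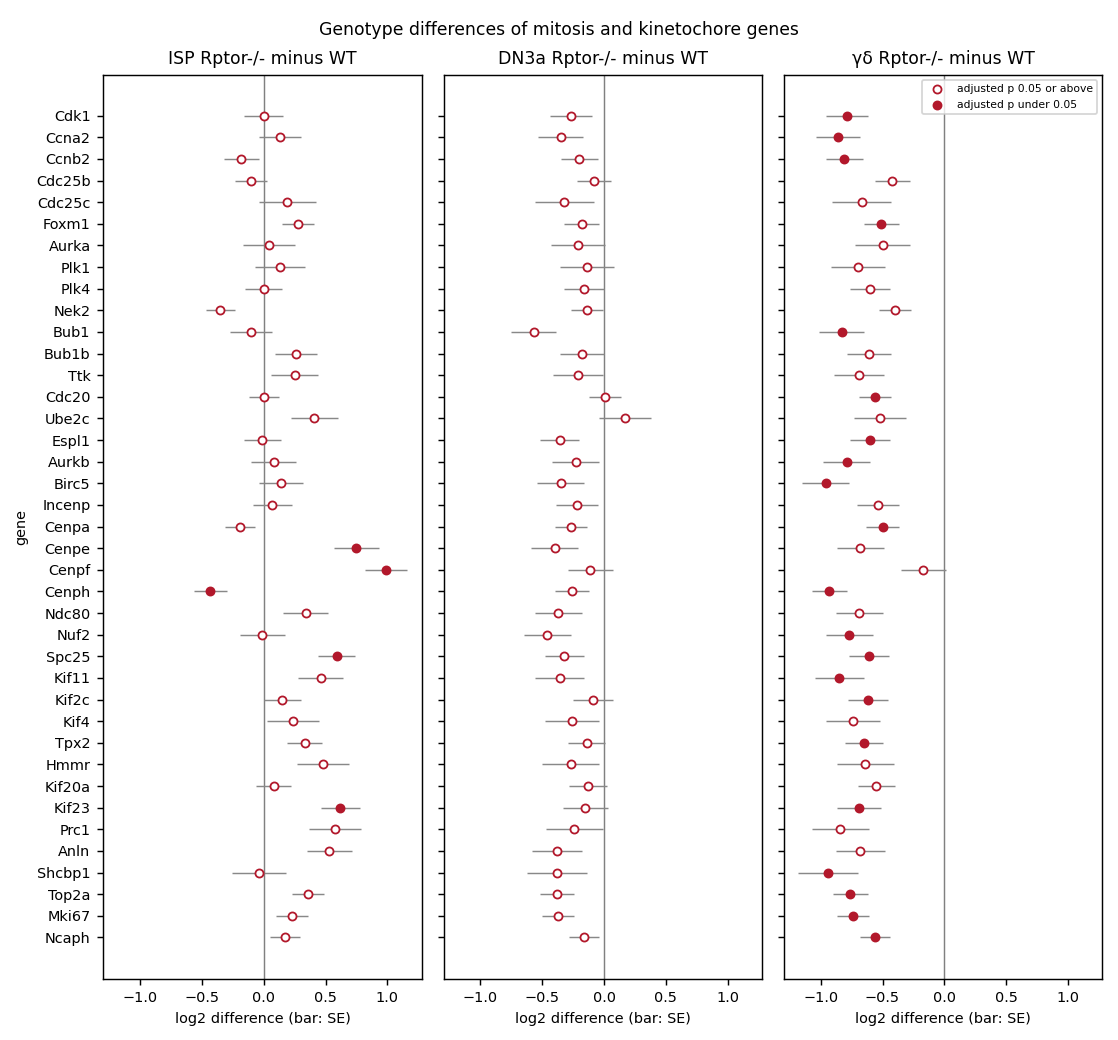
Log2 difference between Rptor-/- and WT arrays for each of the 39 genes in ISP, DN3a and γδ cells (bars, SE from limma); filled points have an adjusted p under 0.05. In γδ cells all points lie left of 0 and 21 are filled, in DN3a cells none is filled, and in ISP cells 4 filled points lie to the right and Cenph to the left.

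Genes of other processes moved beside these in γδ cells. Of 85 measured other mitosis genes, 30 fell (35.3%) and none rose, with a median difference of -0.44. Examples are Mybl2, a regulator of late cell cycle genes (-0.69), Spc24, the partner of Spc25 (-0.88), the spindle motor Kif15 (-0.89) and the spindle protein Dlgap5 (-0.71). The core subunits of the anaphase-promoting complex gave 0 calls among 14, with a median of -0.02, by limma, and 2 were lower at an unadjusted p under 0.05. Of 32 S phase and replication genes, 22 fell (68.8%), with a median of -0.54, led by the thymidylate synthase Tyms (-0.71) and the replication initiation factor Mcm10 (-0.85). Markers of double-positive and mature αβ T cells also moved: 2 of 6 fell, Cd8b1 to 7.09 ± 0.61 in Rptor-/- γδ cells, against 8.81 ± 0.05 in WT γδ cells (SD, n = 3 each), and Cd8a by 0.53. Averaged over those 6 markers, the arrays ran from 7.94 to 8.23 in Rptor-/- γδ cells and from 8.53 to 8.64 in WT γδ cells. Of 5 ISP markers, 3 fell and none rose, against 1.28% of all genes called lower. These were Cd8b1 and Cd8a, which stand in both lists, and Cd24a (-0.33, adjusted p = 0.0433, limma). The part of an ISP-like shift in the mitotic gene differences was not tested. The γδ gate left out cells with CD4, CD8 or TCRβ on the surface. The part of such cells in the mitotic gene differences was not tested. Of the 7 DN3 markers, 1 rose in Rptor-/- γδ cells, Dtx1 by 0.57.

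In DN3a precursors, none of the 39 genes was called by limma, against 0.271% of all genes called lower and 0.712% called higher, and 6 were lower at an unadjusted p under 0.05. The median difference was -0.24, and 37 of the 39 differences were below 0, from -0.57 for Bub1 to 0.17 for Ube2c. No gene had separated groups, a pattern that 6.74% of all genes showed in the lower direction. The arrays of Rptor-/- DN3a cells varied more than those of any other group, with a median SD of 0.349 over the 39 genes, against 0.213 in WT DN3a cells and 0.113 over all genes in Rptor-/- DN3a cells.

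The size of the DN3a difference depended on array 1 of either genotype. The members' median lay 0.59 and 0.18 below the WT mean on Rptor-/- DN3a arrays 1 and 2 and 0.04 above it on array 3, while the WT arrays lay 0.23 below and 0.10 and 0.13 above. On Rptor-/- array 1, 37 genes were below the lowest WT array. Without Rptor-/- array 1, the median difference of the 39 genes was -0.06, and the differences of Cenpf and Plk1 turned to 0.03 and 0.06. Without WT array 1, also the lowest of its group, the median was -0.36. With the replicate number as a block in the model it was -0.24. Without Rptor-/- array 3, 1 gene was called, Bub1.

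Bub1 shows this spread, with 6.68, 7.33 and 7.65 in Rptor-/- DN3a cells, against 7.73, 7.64 and 8.0 in WT DN3a cells. Its highest Rptor-/- array just passed the lowest WT array, and the difference of -0.57 ± 0.18 was not called (adjusted p = 0.184). Top2a had 9.09, 9.43 and 9.67 in Rptor-/- DN3a cells, against 9.55, 9.90 and 9.88 in WT DN3a cells (-0.38, adjusted p = 0.276). Mki67 had 10.37, 10.68 and 10.99 in Rptor-/- DN3a cells, against 10.89, 11.11 and 11.14 in WT DN3a cells (-0.37, adjusted p = 0.281). In both, 2 Rptor-/- arrays lay below the WT arrays and the other lay among them. The kinetochore gene Nuf2 had 7.29, 7.99 and 8.09 in Rptor-/- DN3a cells, against 8.06, 8.4 and 8.28 in WT DN3a cells (-0.46, adjusted p = 0.384). Separase, Espl1, had 7.91, 8.17 and 8.38 in Rptor-/- DN3a cells, against 8.25, 8.58 and 8.70 in WT DN3a cells (-0.36, adjusted p = 0.424). Cenpa had 8.21, 8.46 and 8.74 in Rptor-/- DN3a cells, against 8.47, 8.87 and 8.88 in WT DN3a cells (-0.27, adjusted p = 0.458). In each of these genes the highest Rptor-/- array lay above the lowest WT array. Cdc20 differed by 0.01 ± 0.13.

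Other cell cycle lists also gave few calls in DN3a cells, whereas some marker genes were well past the threshold. Of the 85 other mitosis genes none was called by limma, with 21 lower at an unadjusted p under 0.05, and of the 32 S phase genes Tyms fell by 0.43 ± 0.10. Lyz2, a myeloid gene, rose to 7.99 ± 0.40 in Rptor-/- DN3a cells, against 6.95 ± 0.28 in WT DN3a cells, and was the 1 called gene of 11 myeloid markers. The mean of those 11 markers ran from 5.61 to 5.65 in Rptor-/- DN3a cells and from 5.55 to 5.67 in WT DN3a cells, and the part of such cells was not tested. Stage and lineage genes moved as well. Of 7 DN3 markers 2 rose in Rptor-/- DN3a cells, Dtx1 by 1.38 (adjusted p = 4.69e-07, limma) and Ptcra by 0.68. Of the 4 measured genes listed for γδ T cells 2 rose, Cd3d by 0.43 and Sox13 by 0.51. The other genes of that list were Cd3e, also counted as a DN3 marker, and Cd3g. The list does not set γδ cells apart here: in WT γδ against WT DN3a cells Sox13 was higher (2.78), but Cd3g (-0.39) and Cd3e (-0.24) were lower. Groups were apart in 6 of the 7 DN3 markers and in all 4 genes of the γδ list, all higher in Rptor-/- DN3a cells. Of all genes, 10.4% had groups apart in that direction. Averaged over the list, DN3 markers ran from 10.81 to 10.85 in Rptor-/- and from 10.31 to 10.35 in WT DN3a cells. Averages of the γδ list ran from 11.70 to 11.73 in Rptor-/- and from 11.39 to 11.41 in WT DN3a cells. The part of these stage and lineage shifts in the mitotic gene differences was not tested.

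The difference between the genotype effects in γδ and DN3a cells was tested as an interaction. All 39 differences of effects were below 0, with a median of -0.42, but none was called by limma, against 0.207% of all genes called lower and 0.392% called higher. Before adjustment, limma put 10 genes below 0 with a p under 0.05, and Cdk1, for example, had a difference of effects of -0.51 (adjusted p = 0.537). The median was -0.62 without Rptor-/- DN3a array 1 and -0.28 without Rptor-/- DN3a array 3, and no gene was called with any 1 of these 12 arrays left out. A difference between the effects in γδ and DN3a cells was thus not resolved gene by gene with 3 arrays a group.

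**Figure D3:**
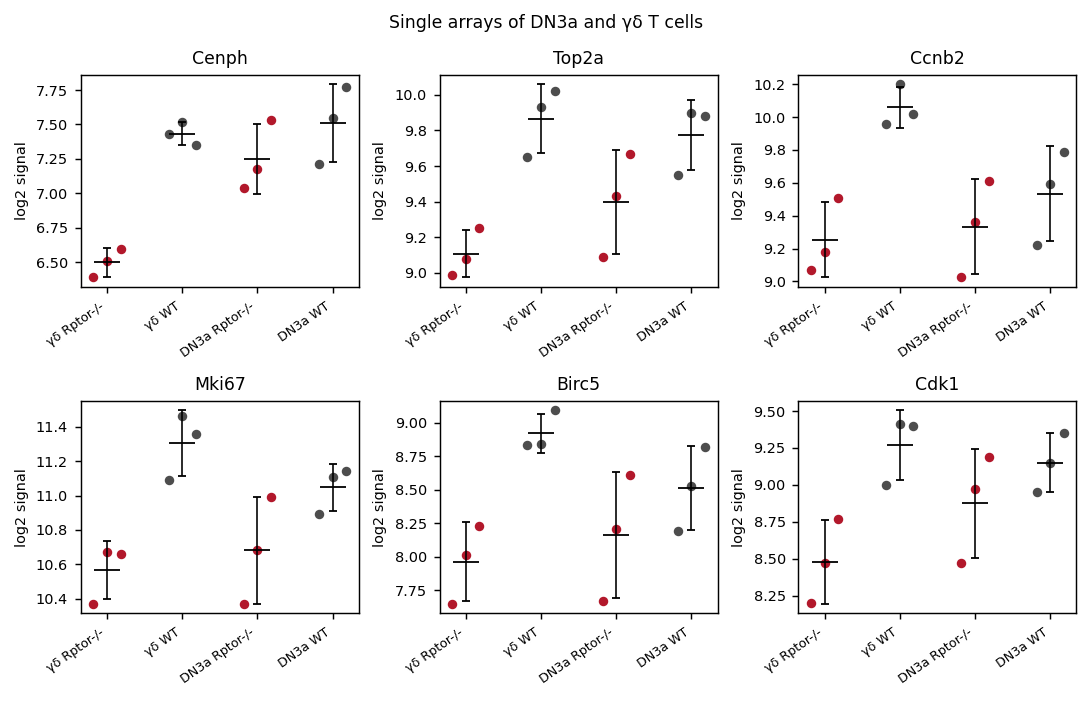
Log2 signal on single arrays for Cenph, Top2a, Ccnb2, Mki67, Birc5 and Cdk1 in γδ and DN3a cells of both genotypes (points, arrays; bars, mean ± SD, n = 3 each). In γδ cells the Rptor-/- points lie below all WT points for each gene, and in DN3a cells the genotypes overlap.

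In ISP cells the same genes gave a mixed picture. Cenpf, Cenpe, Spc25 and Kif23 rose in Rptor-/- ISP cells and Cenph fell, which is 10.3% of the 39 genes higher and 2.56% lower, against 5.87% and 6.57% of all genes. The median difference was 0.15, against 0.00 over all genes, 28 of 39 differences were above 0, and 12 genes were higher and 2 lower at an unadjusted p under 0.05. Groups did not overlap in 11 genes that were higher and 1 that was lower, or 28.2% and 2.56% of the genes, against 7.75% and 8.95% of all genes.

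Cenpf had 8.35, 8.10 and 8.14 in Rptor-/- ISP cells, against 7.30, 7.62, 7.14 and 6.77 in WT ISP cells. The Rptor-/- arrays were close together and all above the WT arrays, and Cenpf rose by 0.99 ± 0.17 (adjusted p = 0.00046, limma), a 1.99-fold higher signal. Cenpe had 9.16, 9.01 and 8.80 in Rptor-/- ISP cells, against 8.36, 8.54, 8.24 and 7.83 in WT ISP cells, again without overlap. It rose by 0.75 ± 0.18 (adjusted p = 0.00813). Cenpf and Cenpe were called whichever ISP array was left out.

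Spc25 had 8.4, 7.85 and 7.85 in Rptor-/- ISP cells, against 7.58, 7.53, 7.45 and 7.19 in WT ISP cells. Kif23 had 8.90, 8.56 and 8.42 in Rptor-/- ISP cells, against 8.18, 8.30, 7.99 and 7.54 in WT ISP cells. Both groups were apart but the first Rptor-/- array was highest in each gene, and the rises of 0.59 and 0.62 (adjusted p = 0.0109 and 0.0147) were not called without it (adjusted p = 0.0915 and 0.0972). Cenph had 8.73, 8.30 and 8.32 in Rptor-/- ISP cells, against 8.84, 8.93, 8.91 and 8.84 in WT ISP cells. All Rptor-/- arrays were below the WT arrays, and the fall of 0.43 ± 0.13 (adjusted p = 0.0334) was called in 2 of the 7 fits that left out 1 ISP array. These were the fits without Rptor-/- array 1 (-0.57) and without WT array 4 (-0.44).

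Other midzone and motor genes had separated groups in ISP cells without being called: Anln, with 8.26, 8.0 and 8.0 in Rptor-/- ISP cells, against 7.62, 7.76, 7.80 and 7.07 in WT ISP cells, differed by 0.53 (adjusted p = 0.0734), Prc1 by 0.58 (adjusted p = 0.0926) and Kif11 by 0.46 (adjusted p = 0.124). Top2a had 10.79, 10.57 and 10.61 in Rptor-/- ISP cells, against 10.40, 10.42, 10.22 and 10.13 in WT ISP cells (0.36, adjusted p = 0.0737). The Cdk1 module, Foxm1 and Cenpa were not called in ISP cells. Cdk1 overlapped between the groups, with 9.87, 9.55 and 9.44 in Rptor-/- ISP cells and 9.54, 9.72, 9.72 and 9.5 in WT ISP cells, Ccnb2 differed by -0.18 (adjusted p = 0.545) and Cenpa by -0.19 (adjusted p = 0.396). Cdc25c, Ccna2 and Cdc25b differed by 0.19, 0.13 and -0.10, with overlapping groups. Foxm1 differed by 0.28 with separated groups (adjusted p = 0.209). Plk1 and Aurkb differed by 0.13 and 0.08. Nek2 was lower by 0.35 without being called (adjusted p = 0.076), and it was called at -0.44 without Rptor-/- array 1 and at -0.42 without WT array 4.

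The median ISP difference rested on Rptor-/- array 1 and WT array 4. Relative to the WT mean, the members' median was 0.38, 0.05 and 0.03 on the Rptor-/- ISP arrays, and 0.08, 0.13, 0.03 and -0.28 on the WT ISP arrays. The median difference was 0.05 without Rptor-/- array 1, 0.06 without WT array 4 and -0.01 without both, and it lay between 0.19 and 0.23 when any other ISP array was left out. With both left out, which was chosen after the data were seen, Cenpf rose by 0.77, and Cenph and Nek2 fell by 0.58 and 0.51. Cenpe, Spc25 and Kif23 were then not called. In a fit of the ISP arrays alone, Cenpf was the 1 gene called.

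**Figure D4:**
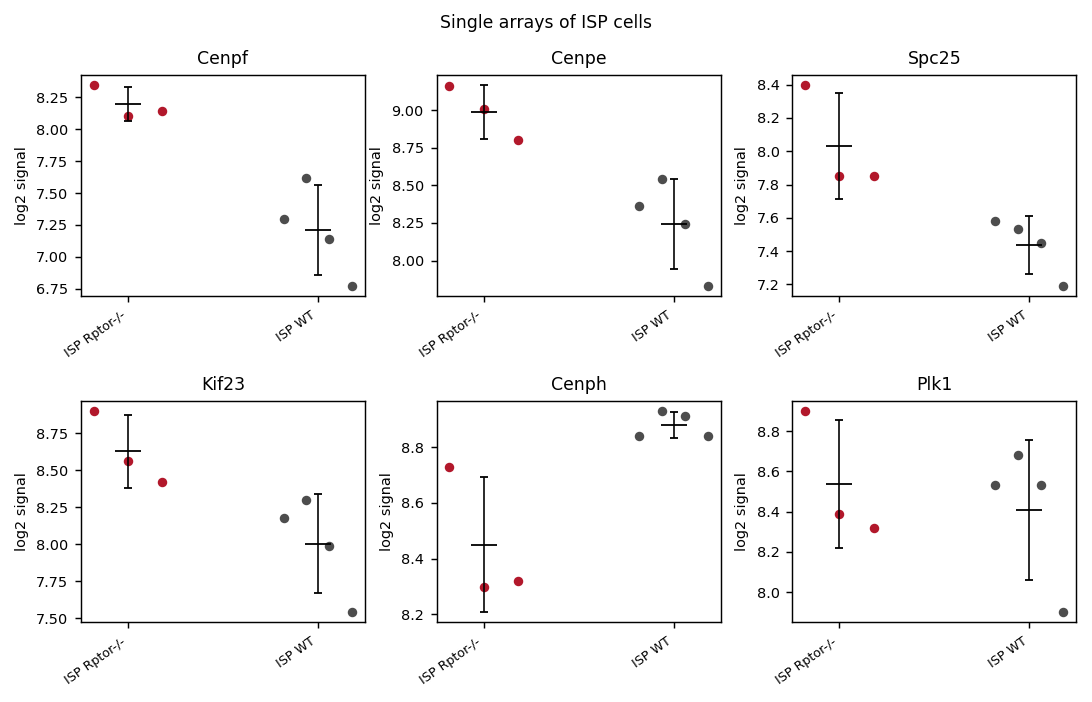
Log2 signal on single arrays of Rptor-/- and WT ISP cells for Cenpf, Cenpe, Spc25, Kif23, Cenph and Plk1 (points, arrays; bars, mean ± SD, n = 3 and 4). Cenpf, Cenpe, Spc25 and Kif23 lie higher in all Rptor-/- arrays, Cenph lies lower in all of them, and Plk1 overlaps.

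Gene size moved with the differences in ISP cells and, in the other direction and less closely, in DN3a cells. Across 6843 protein-coding genes with a mean signal above 7, the genotype difference in ISP cells had a Spearman correlation of 0.33 with gene span in RefSeq. It was -0.22 in DN3a cells, 0.06 in γδ cells and -0.07 between WT γδ and WT DN3a cells. The median ISP difference of these genes was -0.12 in the shortest of 5 equal classes of span and 0.12 in the longest. Within the 39 mitotic genes the same correlation was 0.42 in ISP cells, -0.41 in DN3a cells, -0.18 in γδ cells and -0.48 between WT γδ and WT DN3a cells. These are descriptions across genes measured on the same arrays, RNA quality was not given, and the part of gene size in the results was not tested. Measured from the median of genes in the same class of span, the members' median was 0.20 in ISP cells, -0.27 in DN3a cells and -0.72 in γδ cells, against 0.15, -0.24 and -0.68 without that step.

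Of 85 other mitosis genes, 7 rose and 3 fell in Rptor-/- ISP cells, with a median of 0.12. These are 8.24% and 3.53% of the list, near or below the 5.87% and 6.57% of all genes called higher and lower, so the counts do not set the list apart. The kinetochore protein Cenpt (0.41), the microtubule polymerase Ckap5 (0.40), the spindle pole protein Aspm (0.78) and the spindle protein Nusap1 (0.62) rose. Pttg1, the inhibitor of separase (-0.40), and the kinetochore proteins Pmf1 (-0.43) and Cenpm (-0.49) fell. Of 32 S phase genes, 14 fell (43.8%) and none rose, with a median of -0.35, led by the histone chaperone subunit Chaf1b (-0.63) and the clamp loader subunit Rfc3 (-0.67), and of 14 subunits of the anaphase-promoting complex 1 fell, Anapc15 (-0.36). Markers of the earlier DN3 stage moved too: 5 of 7 rose in Rptor-/- ISP cells, Dtx1 by 1.81, Notch3 by 1.36, Ptcra by 0.63, Il2ra by 0.48 and Cd3e by 0.22, and Hes1 fell by 0.98. Averaged over the 7 markers, the arrays ran from 8.0 to 8.05 in Rptor-/- ISP cells and from 7.38 to 7.52 in WT ISP cells, and the part of such cells in the mitotic gene differences was not tested. Of 5 ISP markers, Cd24a differed by -0.51 and was called lower, and Ptcra and Cd3e, given above, rose.

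The genotype effects in ISP cells were set against those in the other cells as interactions, each effect being measured within its own cell type. Against γδ cells, the ISP effect was higher in 19 of the 39 genes and lower in none, or 48.7%, against 2.16% of all genes higher and 3.63% lower. The median of the 39 differences was 0.87, and all 39 were above 0. The largest were Cenpe (1.43 ± 0.27, adjusted p = 0.00288) and Prc1 (1.42 ± 0.31, adjusted p = 0.0104), followed by Kif11 and Kif23 (1.31 each), and the smallest was Nek2 (0.05). With Rptor-/- ISP array 1 and WT ISP array 4 left out, 10 genes were called and the median was 0.62, and without WT γδ array 3, 12 were called. Against DN3a cells, the ISP effect was higher in Cenpe (1.15), Cenpf (1.10), Spc25 (0.91) and Top2a (0.74), 10.3% of the genes, against 2.89% of all genes higher and 4.12% lower. Here 2 genes were called with those 2 ISP arrays left out, 9 without Rptor-/- DN3a array 3, and the median of 0.44 was 0.20 without Rptor-/- DN3a array 1.

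In cells with intact Rptor, a small set of mitotic genes was higher in γδ T cells than in DN3a precursors. Cdc25b, Ube2c, Cenpa, Ccnb2, Nek2 and Tpx2 were called higher and no gene lower, or 15.4% of the 39 genes, close to the 12.7% of all genes called higher (12.3% were called lower). The median difference was 0.22, against 0.00 over all genes, and 32 of 39 differences were above 0. In 11 genes, 28.2%, every WT γδ array lay above every WT DN3a array, against 19.3% of all genes, and in no gene was it the reverse, against 19.6% of all genes. This comparison uses the same WT arrays as the genotype comparisons in γδ and DN3a cells.

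Cdc25b had 8.23, 8.39 and 8.10 in WT γδ cells, against 7.12, 7.48 and 7.11 in WT DN3a cells. The groups were far apart, and it was higher by 1.00 ± 0.14 (adjusted p = 8.97e-06, limma), a 2-fold difference. Cenpa had 9.35, 9.35 and 9.40 in WT γδ cells, against 8.47, 8.87 and 8.88 in WT DN3a cells, and was higher by 0.63 ± 0.13 (adjusted p = 0.000693). Its γδ arrays were nearly identical, and these 2 genes were called whichever array was left out. Ube2c had 8.29, 8.65 and 8.29 in WT γδ cells, against 7.07, 7.95 and 7.78 in WT DN3a cells (0.81 ± 0.21, adjusted p = 0.00591). Its first DN3a array was far below the others. Ccnb2 had 9.96, 10.20 and 10.02 in WT γδ cells, against 9.22, 9.59 and 9.79 in WT DN3a cells, and was higher by 0.53 ± 0.15. Nek2 had 7.82, 7.81 and 8.03 in WT γδ cells, against 7.42, 7.46 and 7.52 in WT DN3a cells, and was higher by 0.42 ± 0.13 (adjusted p = 0.0241). Tpx2 had 9.26, 9.43 and 9.20 in WT γδ cells, against 8.61, 9.0 and 9.05 in WT DN3a cells, and was higher by 0.41 ± 0.15 (adjusted p = 0.0493). In none of these 3 genes did the groups overlap, and the γδ arrays came closest to a DN3a array in Tpx2 and Ccnb2.

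Several well-known markers of division were not called between the WT populations. Top2a had 9.65, 9.93 and 10.02 in WT γδ cells and 9.55, 9.90 and 9.88 in WT DN3a cells (0.09, adjusted p = 0.723), and Cdk1 differed by 0.12 (adjusted p = 0.723). Mki67 differed by 0.26 (adjusted p = 0.195), and Foxm1 by 0.38 (adjusted p = 0.0515). Lowest in the order were Plk4 (-0.27), Prc1 (-0.23) and Bub1b (-0.18). WT DN3a array 1 lay below its group mean in all 39 genes, and without it 2 genes were called, Cdc25b and Cenpa, and the median was 0.07. WT γδ array 1 also lay below its group mean in all 39 genes, and without it 6 genes were called and the median was 0.32. Without WT γδ array 2 the median was 0.13.

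**Figure D5:**
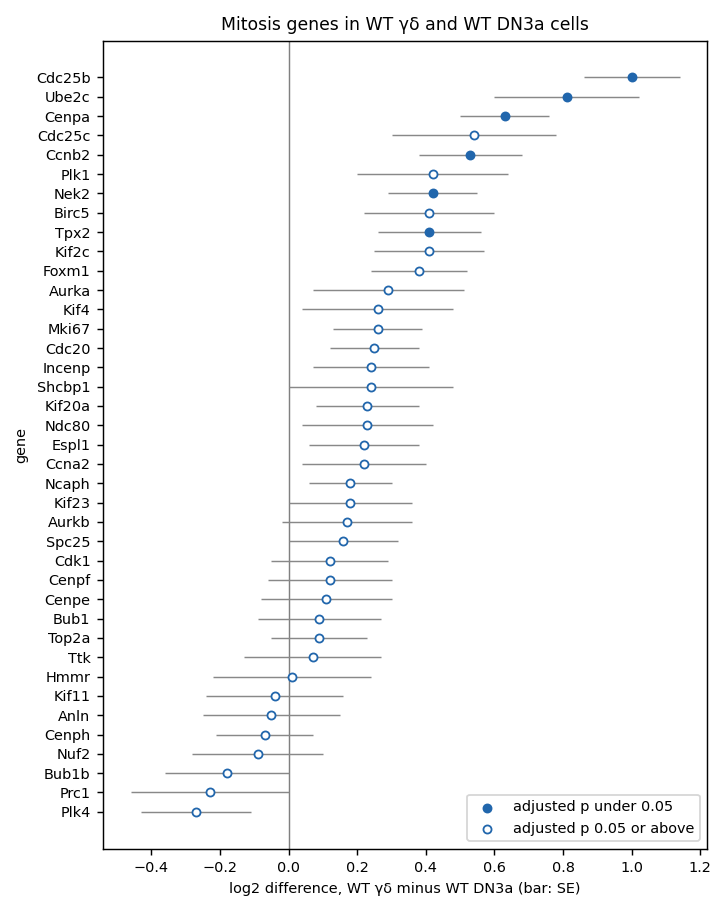
Log2 difference between WT γδ and WT DN3a cells for the 39 genes, in order of size (bars, SE from limma); filled points have an adjusted p under 0.05. The 6 filled points lie right of 0, from Tpx2 at 0.41 to Cdc25b at 1.00, and the other genes lie between Plk4 at -0.27 and Cdc25c at 0.54.

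Of the 85 other mitosis genes, 6 were higher and 13 lower in WT γδ than in WT DN3a cells, with a median of 0.02. These are 7.06% and 15.3% of the list, against 12.7% and 12.3% of all genes, so the list was called about as often as all genes. Pttg1 (0.49), the centromere factor Mis18a (0.56), the histone kinase Haspin (0.81) and the motor Kif18b (0.53) were higher. The checkpoint protein Mad1l1 (-0.45), the Cdk1 inhibitor Wee1 (-0.59), the condensin subunit Smc4 (-0.27) and the centriole protein Sass6 (-0.39) were lower. Of 32 S phase genes, 18 were lower (56.2%) and 1 higher, with a median of -0.36, so replication genes and the 39 mitotic genes had medians on opposite sides of 0 in this comparison. The higher S phase gene was cyclin E1, Ccne1 (0.80), and Pold1 (-0.74) and Mcm6 (-0.62), a polymerase and a helicase subunit, were among the lower ones. Of 14 subunits of the anaphase-promoting complex, Anapc5 (-0.28) and Cdc16 (-0.24) were lower. Of 6 markers of double-positive and mature αβ T cells, 4 were higher in WT γδ cells. These were S1pr1 (5.10), Cd5 (2.87), Ccr7 (1.96) and Cd8b1 (1.47). Of 7 DN3 markers all were lower.

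The 39 genes varied together between arrays of the same group. Deviations from the group mean over the 19 arrays correlated positively in all 741 gene pairs, with a median Pearson r of 0.82 and a range of 0.10 to 0.97, given as a description because the genes share the same libraries. Cdc25b followed the others least, with r = 0.47 against the members' median. In every group the members' median SD exceeded that of all genes: 0.196 against 0.088 in Rptor-/- ISP, 0.206 against 0.116 in WT ISP, 0.226 against 0.117 in Rptor-/- γδ and 0.189 against 0.101 in WT γδ cells.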

How the data were processed

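RNA from 19 sorted thymocyte samples (12 ng each) was amplified and hybridised to arrays. The authors' deposited values are log2 signals per probe set, made by RMA in Partek 6.6 per the submitters' processing notes, and the sources used here give no filter before deposit. The array number limits the precision. Of 41345 probe sets, 23521 carried 1 gene symbol, 1814 several, and 16010 were not named in the annotation used. The brightest probe set of each gene gave 22180 genes (1082 genes had several).

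One limma 3.58.1 model (R 4.3.3) of 6 group means over all 19 arrays gave each comparison and the interactions, with Benjamini-Hochberg adjustment over all genes at 0.05. The model was tried on simulated data with noise drawn separately for each gene. That trial does not cover genes that shift together between arrays, as the 39 genes did. Alternatives changed the arrays used, the scaling, the probe set rule, a filter on dim genes, the variance model and a block on replicate numbers. The 42 genes, the comparison lists, the motifs and the genes given with array values were chosen with earlier results of these data known. Array values are given for the 6 members with the smallest p in each comparison and for well-known members; of the other lists, the 4 mitosis genes in each direction and the 2 S phase or anaphase-promoting complex genes with the smallest p among those called, and more where the text singles them out. Gene span came from RefSeq (GRCm38.p6, 39 of 39 matched), a check added after the data were seen. Python 3.11.15 and pandas 2.3.3 were used for summaries.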

Additional observations from a re-analysis of the deposited data

Results flagged for a closer look

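Of the 39 genes, 4 had 1 array far from the others of its group among the 4 WT ISP arrays, and it was WT ISP array 4, the lowest, each time: Cdc25c at 6.1, Nek2 at 7.22, Kif4 at 7.12 and Ncaph at 8.34. The spread test used flags about 5% of such groups by chance, and the 39 genes share these arrays. The other WT arrays lay between 6.72 and 6.82 for Cdc25c, 7.48 and 7.50 for Nek2, 7.47 and 7.52 for Kif4, and 8.64 and 8.66 for Ncaph.

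The effect of Rptor loss differed between cell types by the interaction test in limma: 19 genes had a higher effect in ISP than in γδ cells, and 4 had a higher effect in ISP than in DN3a cells. The part of the lower signal scale of the ISP arrays in these differences was not tested.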

How the results depend on the processing

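With the ISP arrays alone 1 gene was called in ISP cells (5 in the model of all arrays), 8 after quantile normalization within each array set, 8 among genes above the median signal and 3 without ISP arrays Rptor-/- 1 and WT 4. For the ISP effect against DN3a these last 3 settings gave 9, 8 and 2, and against γδ the last gave 10, with a median of 0.62. In γδ cells, where the main model called 21 genes, 15 were called after centring each array on its median and 15 with array weights. Quantile normalization within each array set gave 28, and genes above the median signal gave 29. The labels do not say what replicate numbers mark, and they were not taken as pairs. The correlations that follow are over all genes, of deviations from group means. Same-numbered Rptor-/- and WT arrays correlated at 0.099, 0.025 and -0.013 in ISP, 0.242, 0.013 and 0.169 in DN3a and -0.104, -0.003 and -0.017 in γδ cells, and Rptor-/- DN3a with Rptor-/- γδ arrays at 0.257, 0.035 and 0.117. Between WT DN3a and WT γδ arrays, same-numbered arrays correlated at 0.075, 0.026 and 0.099, and there each array correlated best with its own number. In the other pairs of groups not every array did. Array 1 was the low one for the 39 genes in all 4 DN3a and γδ groups, and the main model took no account of replicate numbers. A fit with the replicate number as a block within each cell type called 8 genes in ISP cells (5 in the main model). It called 0 in DN3a (0), 36 in γδ (21), 9 for ISP against DN3a (4) and 29 for ISP against γδ (19). WT ISP array 4 has no Rptor-/- array of its number, so it did not enter the ISP difference there, whose median was 0.06. For WT γδ against WT DN3a, a fit of the DN3a and γδ arrays with blocks shared by both cell types called 11 (6). Leaving out 1 array at a time gave 4 to 6 calls in ISP cells (medians 0.05 to 0.23), 0 to 1 in DN3a (-0.40 to -0.06), 5 to 23 in γδ (-0.78 to -0.55), 0 for γδ against DN3a (-0.62 to -0.28), 2 to 8 between the WT groups (0.07 to 0.32), 3 to 9 for ISP against DN3a (0.20 to 0.59) and 12 to 23 for ISP against γδ cells. Signs turned for genes near 0. In ISP cells Cdk1 was 0.08 after quantile normalization, 0.00 with array weights and -0.13 to 0.09 with 1 array left out. Aurkb and Plk1 were both -0.04 with the block, -0.15 and -0.22 without the 2 ISP arrays, and -0.04 to 0.19 and -0.05 to 0.24 with 1 array left out. With 1 array left out, Cenpf and Plk1 ran from -0.23 to 0.03 and -0.31 to 0.06 in DN3a cells, and Cenpf and Top2a from -0.01 to 0.26 and -0.02 to 0.20 between the WT groups. The causes were not tested. Of the other settings for single genes, 1043 kept direction and call, 30 gained a call and 49 lost one.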

Other observations

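Members with and without CHR letters had close medians in γδ cells. In Rptor-/- against WT γδ cells, the median difference was -0.68 over the 25 members with TTTGAA or TTTAAA in the window of 300 bases and -0.67 over the 6 with neither. In ISP cells the medians were 0.25 and -0.10 for the same members, given without a test because the split was made after the values were seen.

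The array-level counterpart of the gene size relation was uneven between WT arrays. Over the same 6843 genes, the difference of each Rptor-/- ISP array from the WT mean had a Spearman correlation with gene span of 0.28, 0.34 and 0.34, while each WT ISP array set against the other WT arrays gave 0.12, 0.20, -0.31 and 0.10. In γδ cells the Rptor-/- arrays gave 0.01, 0.11 and 0.05, and the WT arrays -0.18, -0.30 and 0.40.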
